A study of Mus musculus with 8 samples.

Results

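Genes of arginine, polyamine and itaconate metabolism were followed in red pulp macrophages early in sepsis. The members were the rows of the deposited count table whose Ensembl identifiers carry the symbols Arg1, Arg2, Nos2, Ass1, Slc7a2, Odc1, Oaz1, Azin1, Sat1 and Acod1, which is 10 of 55414 gene rows. Red pulp macrophages are the spleen macrophages that clear aged red blood cells. They were sorted by flow cytometry 2 h after surgery from wild-type mice of strain C57BL/6J. The surgery was cecal ligation and puncture (CLP), a model of abdominal sepsis in which the cecum is tied and pierced, or a sham operation, with 4 libraries in each group. The labels give no ages and do not state whether every library had a mouse of its own, so the p-values measure the spread between these libraries, which may in part be technical. Each library held 15392992 to 25665633 counts, and values are given as CPM, a gene's reads relative to all reads of its library, on totals scaled by TMM, a method that sets libraries level on the bulk of their genes.

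Of the 10 genes, 6 were higher and 1 was lower 2 h after CLP, 1 was not called, and 2 were too scarce to judge. Over all genes tested, 43.3% were called in either direction. With libraries scaled by their totals alone, 4 of the 10 were higher and 1 lower, where 55.1% of all genes were called. The mitochondrial arginase Arg2 rose 14.97-fold and the itaconate enzyme Acod1 9.84-fold, both from low levels. Ass1, which recycles citrulline to arginine, and Azin1, the inhibitor of antizyme, rose by about the same factor, 3.15-fold and 3.11-fold. Sat1, which acetylates polyamines for breakdown and export, was the single member that fell, 1.28-fold, while the classic markers Arg1 and Nos2 were hardly detected.

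Arginine can leave the macrophage's free pool by different routes. Nitric oxide synthases turn it into nitric oxide and citrulline, whereas arginases turn it into urea and ornithine. Ornithine decarboxylase, encoded by Odc1, converts ornithine to putrescine, the first polyamine, and antizyme (Oaz1) binds this enzyme and sends it to the proteasome unless antizyme inhibitor (Azin1) takes antizyme away. Acod1 encodes the enzyme that makes itaconate from cis-aconitate of the citric acid cycle, and macrophages exposed to bacterial products are known for it.

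All 12 red pulp macrophage markers checked were expressed, with a summed level of 39180 to 44480 CPM in CLP and 33610 to 41360 CPM in sham. After CLP 5 of them were higher and 2 (Slc40a1 and Mertk) lower, where 43.3% of all genes tested were called in either direction. With libraries scaled by their totals alone, only Spic of the 12 was higher (0.58 on the log2 scale). Slc40a1, Mertk, Cd163 (-0.48) and Fcgr1 (-0.51) were then lower, where 55.1% of all genes were called. Among markers of other cells, 4 of 13 neutrophil genes passed the filter on low counts and 3 of them were higher after CLP, with a summed level of 103 to 176 CPM against 77.5 to 94.1 CPM in sham. Most of that sum was Csf3r, while S100a8 went from a mean of 1.60 to 6.93 CPM and Ly6g was at 0 in all sham libraries and at a mean of 0.016 CPM in CLP. Other neutrophil genes under the filter went both ways. Mpo (mean 2.05 CPM in sham and 0.109 CPM in CLP), Elane, Mmp9 and Cxcr2 had lower means after CLP. Mmp8, Camp, Ltf and Ngp had higher ones. Of 9 monocyte markers 1 was higher, with sums of 582 to 638 CPM in CLP and 502 to 625 CPM in sham. Nearly all of that sum was Treml4, at a mean of 588 CPM in CLP and 540 CPM in sham without a call. Ly6c2 was at a mean of 1.67 CPM in CLP and 1.47 CPM in sham. Of 5 platelet markers 3 were higher, with sums of 17.5 to 22.3 CPM against 6.62 to 7.78 CPM. Also higher were the dendritic cell genes Ccr7 (2.78-fold) and Zbtb46 (1.66-fold), with sums of 60.2 to 75.6 CPM against 37.5 to 55.0 CPM although Clec9a was lower, the collagens Col1a1, Col1a2 and Col3a1 (2.33-fold to 2.52-fold, each under 10 CPM in every library), the marginal zone gene Marco (2.50-fold) and the erythroid gene Alas2 (2.96-fold). Of the B cell list Cd79b, and of the T and NK cell list Ncr1, were lower. With library totals Csf3r (0.17 on the log2 scale), the monocyte gene Fn1 (0.53) and Zbtb46 (0.41) lost their calls. The other calls given above for markers of other cells stayed. Treml4 (-0.19) and the endothelial genes Pecam1 (-0.17) and Stab2 (-0.42) were then called lower. The part of these cells in the results below was not tested. In sorted bulk RNA, fewer cells of a type and less RNA per cell cannot be told apart.

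Of the 10 members, 8 passed the filter, which asked for about 0.485 CPM in at least 4 libraries, and 7 passed in the sham libraries alone. Acod1 reached that level in 3 of 4 sham and in all 4 CLP libraries, and Arg1 and Nos2 did not pass. In edgeR's quasi-likelihood test, with p-values adjusted over all 14004 genes tested, 6 of the 8 were higher and 1 was lower after CLP. Over all genes tested, 19.8% were higher, 23.5% were lower and 43.3% were called in either direction. The CPM of the groups did not overlap for 7 of the 8, against 41.5% of all genes tested. The median log2 fold change was 1.07 over the 8 and -0.05 over all genes. When libraries were scaled by their totals alone, 4 of the 8 were higher and 1 lower, where 9.18% of all genes were higher, 46.0% lower and 55.1% called in either direction. That scaling shifted fold changes by a median of -0.32 on the log2 scale over all genes, so small changes below are given with it.

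**Figure D1:**
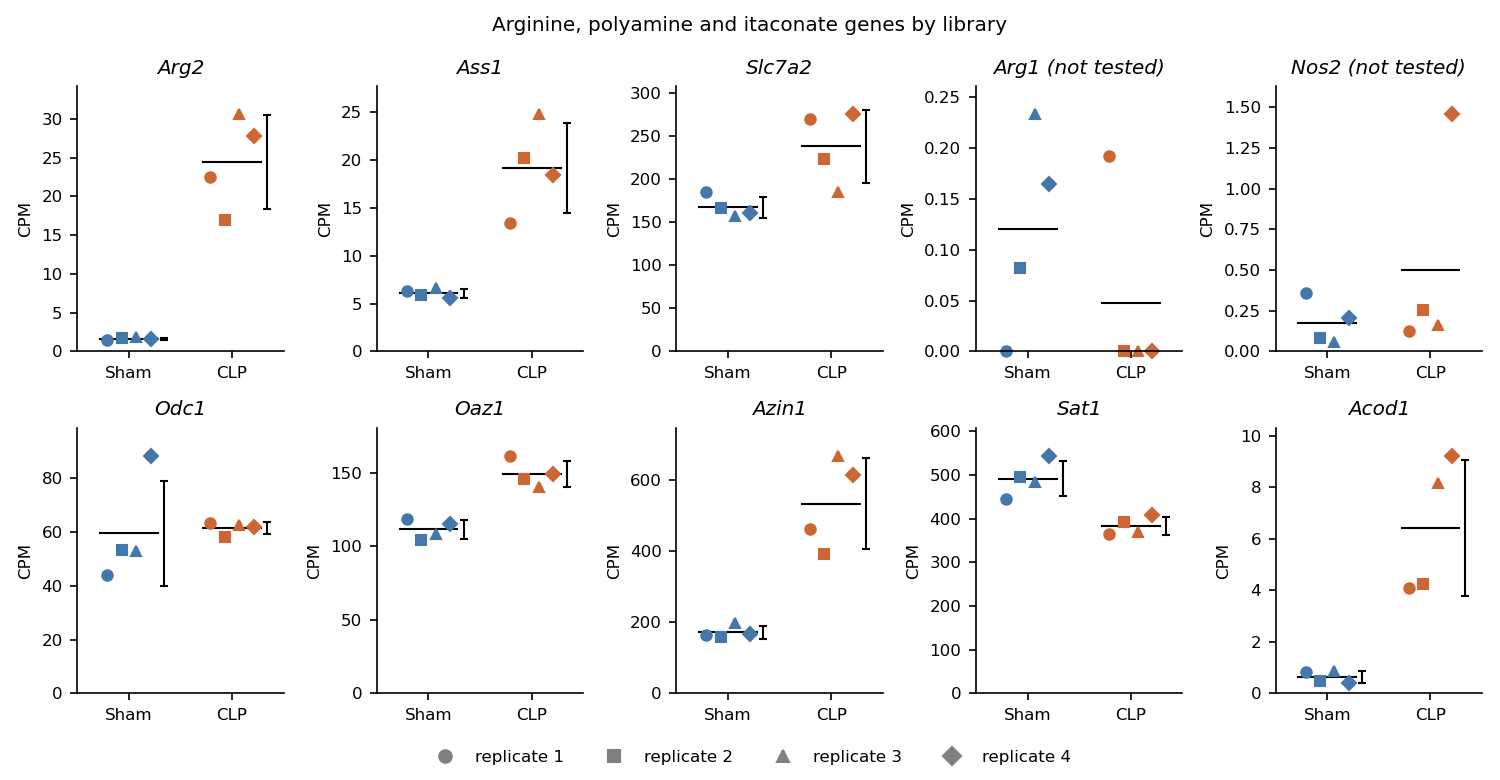
CPM of each member in the 4 sham (blue) and 4 CLP (orange) libraries, on vertical axes linear from 0 with a scale of its own per gene. Marker shapes give the replicate number, lines the mean and, for tested genes, bars 1 SD. The groups lie apart for 7 tested genes, and Odc1 overlaps with Sham replicate 4 as its highest library. Arg1 reaches 0.233 CPM at most, and Nos2 1.46 CPM in CLP replicate 4 and at most 0.362 CPM elsewhere.

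Arg2 encodes the arginase of mitochondria. It was at 1.48, 1.69, 1.81 and 1.56 CPM in Sham replicates 1 to 4 and at 22.5, 16.9, 30.6 and 27.8 CPM in CLP replicates 1 to 4. All 4 CLP libraries were far above all 4 sham libraries, which were close to each other. The means were 1.64 ± 0.14 and 24.4 ± 6.0 CPM (SD, n = 4 each), which edgeR put at 3.90 on the log2 scale (SE 0.20, adjusted p = 6.76e-07). With library totals the log2 fold change was 3.58.

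Arg1, the cytosolic arginase of the urea cycle and of alternatively activated macrophages, gave 3, 0, 0 and 0 reads in CLP replicates 1 to 4 and 0, 2, 4 and 4 reads in Sham replicates 1 to 4. Its highest level was 0.233 CPM. Nos2, the inducible nitric oxide synthase, gave 2, 5, 3 and 22 reads in CLP and 10, 2, 1 and 5 reads in sham. The 22 reads of CLP replicate 4, 1.46 CPM, stood above the other 7 libraries, which overlapped between the groups. A count of 3 reads stands for 0.109 to 0.199 CPM in these libraries, so neither gene can be compared between the groups at this depth.

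Ass1 encodes argininosuccinate synthase, the first enzyme of the path from citrulline back to arginine. Its CPM were 6.30, 5.85, 6.64 and 5.59 in sham and 13.4, 20.2, 24.8 and 18.4 in CLP. The lowest CLP library, replicate 1, was still above every sham library. Ass1 rose by 1.66 on the log2 scale (SE 0.18, adjusted p = 3.19e-05 in edgeR), and by 1.34 with library totals. The next enzyme of that path, Asl, had 25.0 ± 2.4 CPM in the sham libraries, 25.7 ± 2.8 CPM in the CLP libraries and no call (0.04 on the log2 scale, adjusted p = 0.798), but was lower with library totals (-0.28, adjusted p = 0.037). Asl is named here because it acts directly after Ass1, with its value known.

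Slc7a2 encodes CAT2, a transporter that brings arginine and other cationic amino acids into macrophages. Its level was 185, 166, 157 and 161 CPM in sham and 270, 223, 185 and 275 CPM in CLP. The groups only just stayed apart, since CLP replicate 3 lay at 185.1 and Sham replicate 1 at 184.7 CPM. The log2 fold change was 0.51 (SE 0.12, adjusted p = 0.00517 in edgeR), but 0.19 with library totals (adjusted p = 0.154). The related transporter Slc7a1 rose more, from 34.3 ± 1.8 to 78.6 ± 9.5 CPM (1.20 on the log2 scale, adjusted p = 4.88e-06, and 0.88 with library totals).

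The ratio of 2 genes within a library does not depend on scaling. The log2 ratio of Slc7a2 to Slc7a1 counts was 2.37, 2.36, 2.24 and 2.17 in sham and 1.68, 1.69, 1.05 and 1.93 in CLP, so every CLP library was below every sham library. The difference of -0.70 is a 1.62-fold fall of the ratio (two-sided exact permutation p = 0.0286, the smallest that 4 against 4 libraries allow, and 0.0429 adjusted over the 6 ratios tested).

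**Figure D2:**
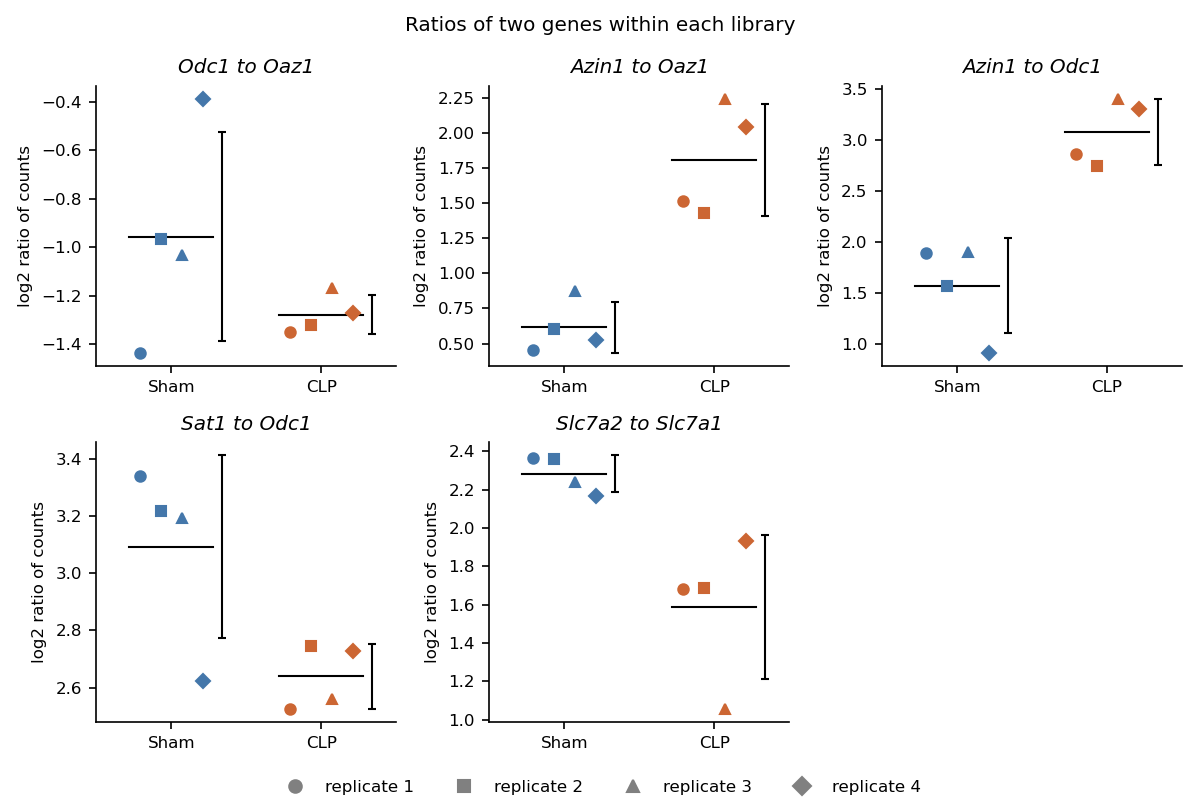
Log2 ratio of the raw counts of 2 genes (vertical axes, not starting at 0) in each sham (blue) and CLP (orange) library, with marker shapes for replicate numbers, the mean as a line and 1 SD as a bar. The groups are separate for Azin1 to Oaz1, Azin1 to Odc1 and Slc7a2 to Slc7a1, and overlap for Odc1 to Oaz1 and Sat1 to Odc1.

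Azin1 had the largest fold change of the 4 polyamine members. It encodes a protein that resembles ornithine decarboxylase and binds antizyme in its place. Azin1 was at 163, 159, 198 and 166 CPM in sham and 461, 392, 665 and 613 CPM in CLP. CLP replicates 3 and 4 were the highest, and no CLP library came near the sham range. The log2 fold change was 1.64 (SE 0.16, adjusted p = 4.11e-05 in edgeR), and 1.32 with library totals. Its relative Azin2 was scarce, with sham libraries at 2.17 ± 0.52 CPM and CLP libraries at 2.04 ± 0.60 CPM, and had no call (adjusted p = 0.821).

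Oaz1, the antizyme itself, was at 119, 104, 108 and 115 CPM in sham and 161, 146, 141 and 149 CPM in CLP. The groups were separate, and edgeR gave a rise of 0.42 on the log2 scale (SE 0.07, adjusted p = 0.00079), but with library totals the value was 0.10 (adjusted p = 0.244). Antizyme is made only when ribosomes shift frame on its mRNA, a step that read counts do not show. The log2 ratio of Azin1 to Oaz1 rose from 0.62 ± 0.18 in sham to 1.81 ± 0.40 in CLP (SD, n = 4 each). The difference of 1.19, a 2.28-fold higher ratio, held in every CLP library against every sham library (two-sided exact permutation p = 0.0286, adjusted p = 0.0429).

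Odc1, which encodes ornithine decarboxylase, had 1 sham library above the rest. It was at 44.0, 53.3, 52.9 and 88.1 CPM in Sham replicates 1 to 4 and at 63.2, 58.3, 62.6 and 61.8 CPM in CLP replicates 1 to 4. The CLP libraries were close together and above Sham replicates 1 to 3, but below Sham replicate 4. With all libraries the log2 fold change was 0.05 (SE 0.19, adjusted p = 0.868 in edgeR). Without Sham replicate 4 it was 0.32 (SE 0.09, adjusted p = 0.0171), where 38.4% of all genes were called and all 8 tested members were. With library totals and all 8 libraries it was -0.28 (adjusted p = 0.266), so the direction for Odc1 is not settled by these data.

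Sham replicate 4 also stood apart in genes of dividing cells and in erythroid markers. A list of 9 proliferation genes, chosen after the data were seen, summed to 801 CPM there, against 186 to 268 CPM in the other sham libraries and 259 to 403 CPM in CLP, and 0 of the 9 were called. The 6 erythroid markers summed to 1495 CPM there, against 272 to 482 CPM in the other sham libraries and 614 to 1064 CPM in CLP. Their part in the Odc1 value was not tested.

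**Figure D3:**
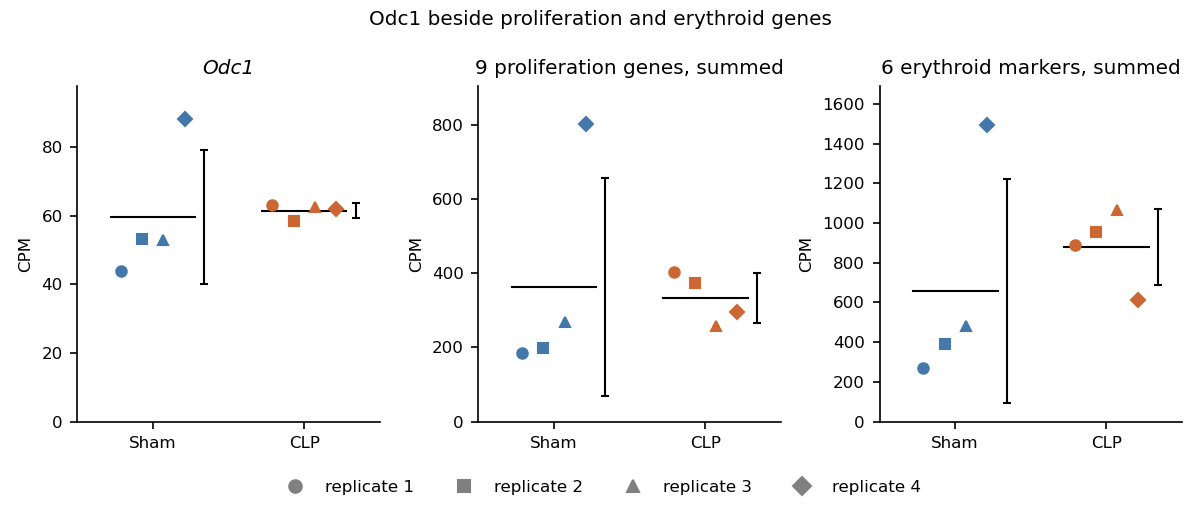
CPM of Odc1, and summed CPM of 9 proliferation genes and 6 erythroid markers (linear axes from 0), in each sham (blue) and CLP (orange) library, with shapes for replicate numbers, means as lines and 1 SD as bars. Sham replicate 4 is the highest library in all 3 panels, at 88.1, 801 and 1495 CPM.

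The ratio of Odc1 to Oaz1 overlapped between the groups. Its log2 value was -1.43, -0.97, -1.03 and -0.39 in sham and -1.35, -1.32, -1.17 and -1.27 in CLP, and the difference of -0.32 did not pass (two-sided exact permutation p = 0.171, adjusted p = 0.171). Without Sham replicate 4 the difference was -0.13 and without Sham replicate 1 it was -0.48, neither with a call. Azin1 to Odc1 was 1.57 ± 0.47 in sham and 3.08 ± 0.32 in CLP, 2.85-fold higher after CLP (two-sided exact permutation p = 0.0286, adjusted p = 0.0429).

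Sat1 encodes spermidine/spermine N1-acetyltransferase. It was at 445, 496, 484 and 543 CPM in sham and 364, 392, 369 and 409 CPM in CLP. Every CLP library was below every sham library, and the fall was small and even. The log2 fold change was -0.36 (SE 0.08, adjusted p = 0.00348 in edgeR), and -0.68 with library totals. The log2 ratio of Sat1 to Odc1 differed by -0.45, with overlap at Sham replicate 4, and did not pass (two-sided exact permutation p = 0.0857, adjusted p = 0.103).

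Acod1 was at 0.832, 0.494, 0.874 and 0.411 CPM in sham, which are 23, 12, 15 and 10 reads, and at 4.10, 4.24, 8.17 and 9.20 CPM in CLP, from 64, 83, 149 and 139 reads. All CLP libraries were above all sham libraries, with CLP replicates 3 and 4 about level with each other and above replicates 1 and 2. The log2 fold change was 3.30 (SE 0.37, adjusted p = 4.26e-05 in edgeR), and 2.98 with library totals.

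CLP replicate 3 held the highest CPM of Arg2, Ass1 and Azin1 and the lowest CLP value of Slc7a2. It also had the highest summed neutrophil markers (176 CPM), and the marginal zone macrophage markers, nearly all Marco, summed to 374 CPM there against 112.5 to 224 CPM in the other CLP libraries. Of the CLP libraries it was also highest for erythroid (1064 CPM) and T and NK cell markers (37.65 CPM). It was lowest of them for red pulp macrophage (39180 CPM), monocyte (582 CPM), B cell, stroma and proliferation genes. The part of these cells in its values was not tested. Without CLP replicate 3 the log2 fold changes were 3.78 for Arg2, 1.51 for Ass1, 1.51 for Azin1 and 0.62 for Slc7a2, and all 4 stayed called.

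Levels of different genes can be compared only per transcript length, here as mean CPM per kilobase of annotated exon. On that scale Sat1 was the highest member in sham (416), followed by Oaz1 (104), Azin1 (34.1), Odc1 (27.0), Slc7a2 (19.3), Ass1 (3.59), Arg2 (1.15) and Acod1 (0.249). The ranges of Azin1, 31.6 to 39.4, and Odc1, 19.9 to 39.9, overlapped, as did those of Odc1 and Slc7a2, while the other neighbours in this order did not overlap. In CLP, Sat1 (324) and Oaz1 (139) were still first and Azin1 (106) came close to Oaz1, with library ranges of 78.0 to 132 and 131 to 150. Odc1 (27.9) and Slc7a2 (27.5) overlapped, Arg2 (17.1) now lay above Ass1 (11.3) with overlapping ranges, and Acod1 (2.45) stayed last.

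**Figure D4:**
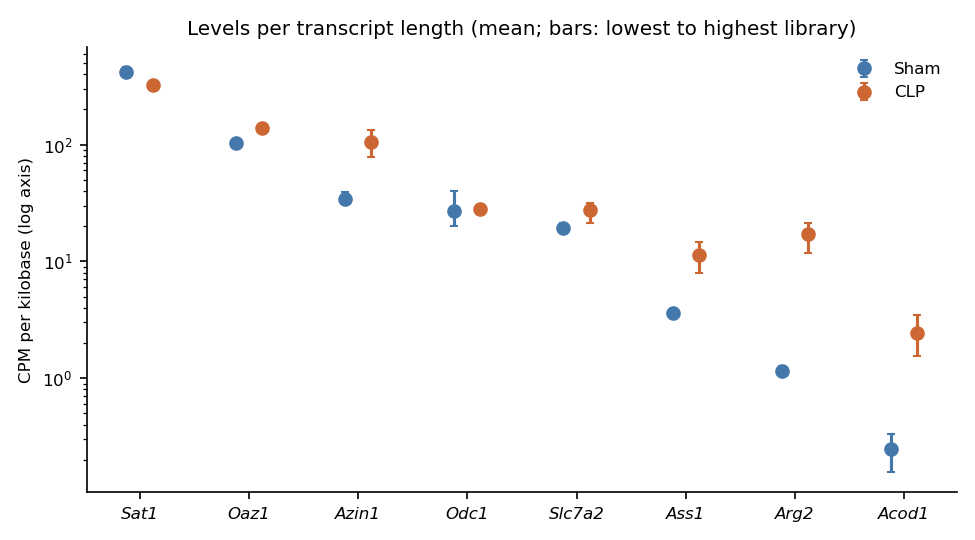
Mean CPM per kilobase of annotated exon (log axis) of the 8 tested members in sham (blue) and CLP (orange), with bars from the lowest to the highest of 4 libraries. Sat1 is highest in both groups and Acod1 lowest, and Arg2 climbs from 1.15 to 17.1.

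Beyond the members, 79 other genes of these pathways were listed, of which 67 were tested, 19 were higher and 9 lower. The share called, 41.8%, was close to the 43.3% of all genes. Their median log2 fold change was 0.11 against -0.05 over all genes. With library totals 8 were higher and 26 lower, 50.7% called against 55.1% of all genes.

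In the list of arginine transport, the urea cycle and nitric oxide, 4 of 14 tested genes were higher and 1 was lower, 35.7% called against 43.3% of all genes. Slc7a7, a subunit of the exporter of cationic amino acids, rose from 152 ± 13 to 243 ± 32 CPM (0.68 on the log2 scale, adjusted p = 0.000351, and 0.36 with library totals). Its partner Slc3a2 did not pass (0.13, adjusted p = 0.213) and was lower with library totals (-0.19, adjusted p = 0.0471). The urea cycle gene Otc had 0 reads in all 8 libraries. In the supply of tetrahydrobiopterin, the cofactor of nitric oxide synthases, 1 of 5 tested genes was higher and 1 lower, 40.0% called against 43.3% of all genes. Gch1, which catalyses the first and limiting step, was at 6.91, 11.3, 15.6 and 16.3 CPM in sham and at 43.8, 44.5, 50.9 and 46.3 CPM in CLP. It rose 3.72-fold (log2 fold change 1.89, SE 0.23, adjusted p = 0.0002), whereas Pts, the next enzyme, fell (-0.34, adjusted p = 0.0119, and 0.054 without Sham replicate 2, and by 0.66 with library totals) and Qdpr did not pass (0.13, adjusted p = 0.347, and -0.19 with library totals).

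Of 14 further polyamine genes tested, 4 were higher and 3 lower, so 7 of 14 were called, beside 43.3% of all genes. The largest fold change was that of the scarce polyamine transporter gene Slc18b1 (1.92 on the log2 scale, adjusted p = 0.0071 in edgeR), which is named with its value known. Its level was 0.0583 to 0.543 CPM in the sham group and 0.987 to 2.35 CPM in the CLP group. Sham replicate 3 held 1 read, so Slc18b1 passed the filter only through the CLP group where it is high. Sms, spermine synthase, rose from 8.87 ± 0.61 to 16.9 ± 1.2 CPM (0.93 on the log2 scale, adjusted p = 7.46e-05, and 0.61 with library totals). Paox, which oxidises the acetylated polyamines that Sat1 makes, fell from 41.9 ± 4.7 to 24.6 ± 3.9 CPM (-0.77, adjusted p = 0.000604). Amd1, which supplies the aminopropyl group for spermidine and spermine, was lower by the test (-0.41, adjusted p = 0.0288, and -0.73 with library totals), a call that leaving out any of CLP replicates 1 and 2 and Sham replicates 1, 2 and 3 removed (highest adjusted p = 0.0802). Spermidine synthase Srm (0.19, adjusted p = 0.353), spermine oxidase Smox (0.11, adjusted p = 0.524) and the lysosomal polyamine exporter Atp13a2 (-0.13, adjusted p = 0.337) did not pass. With library totals Srm was at -0.13 and Smox at -0.21, both without a call, and Atp13a2 was lower (-0.44, adjusted p = 0.00258).

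Spermidine also supplies hypusine, a modified amino acid of the translation factor eIF5A. Of 4 genes of that path 2 were higher and 0 lower, so 2 of 4 were called, beside 43.3% of all genes. With library totals 0 of the 4 were higher and 1 was lower, where 55.1% of all genes were called. The 2 higher genes were Eif5a (270 ± 19 to 378 ± 22 CPM, log2 fold change 0.49, adjusted p = 0.00039) and Dhps (0.31, adjusted p = 0.038), but neither was called with library totals (0.17 and -0.011). The call for Dhps also went when any of CLP replicates 1, 2 and 4 and Sham replicates 2 and 4 was left out (highest adjusted p = 0.0873). Of 8 tested genes that link ornithine to proline and glutamate, 2 were higher and 3 lower, 62.5% called against 43.3% of all genes. With library totals 0 were higher and 5 lower, 62.5% called against 55.1% of all genes. Glul, glutamine synthetase, fell by 0.27 (adjusted p = 0.0357, and by 0.59 with library totals), a call lost without any single library but CLP replicate 1 or 2 or Sham replicate 4 (adjusted p up to 0.184).

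Around itaconate, 6 of 22 tested genes were higher and 1 was lower, 31.8% called against 43.3% of all genes. With library totals 1 was higher and 8 lower, 40.9% called against 55.1%. Irf1, a transcription factor known to act upstream of Acod1, rose from 271 ± 36 to 708.5 ± 130.1 CPM, by 1.38 on the log2 scale (adjusted p = 2.23e-05) and by 1.06 with library totals. Idh1, the cytosolic isocitrate dehydrogenase, fell from 146 ± 15 to 108 ± 7 CPM (-0.43, adjusted p = 0.00211, and -0.75 with library totals). All 4 subunit genes of succinate dehydrogenase, the enzyme that itaconate inhibits, lay between 0.08 and 0.14 without a call, and with library totals they lay between -0.23 and -0.17, with Sdha and Sdhc called lower.

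**Figure D5:**
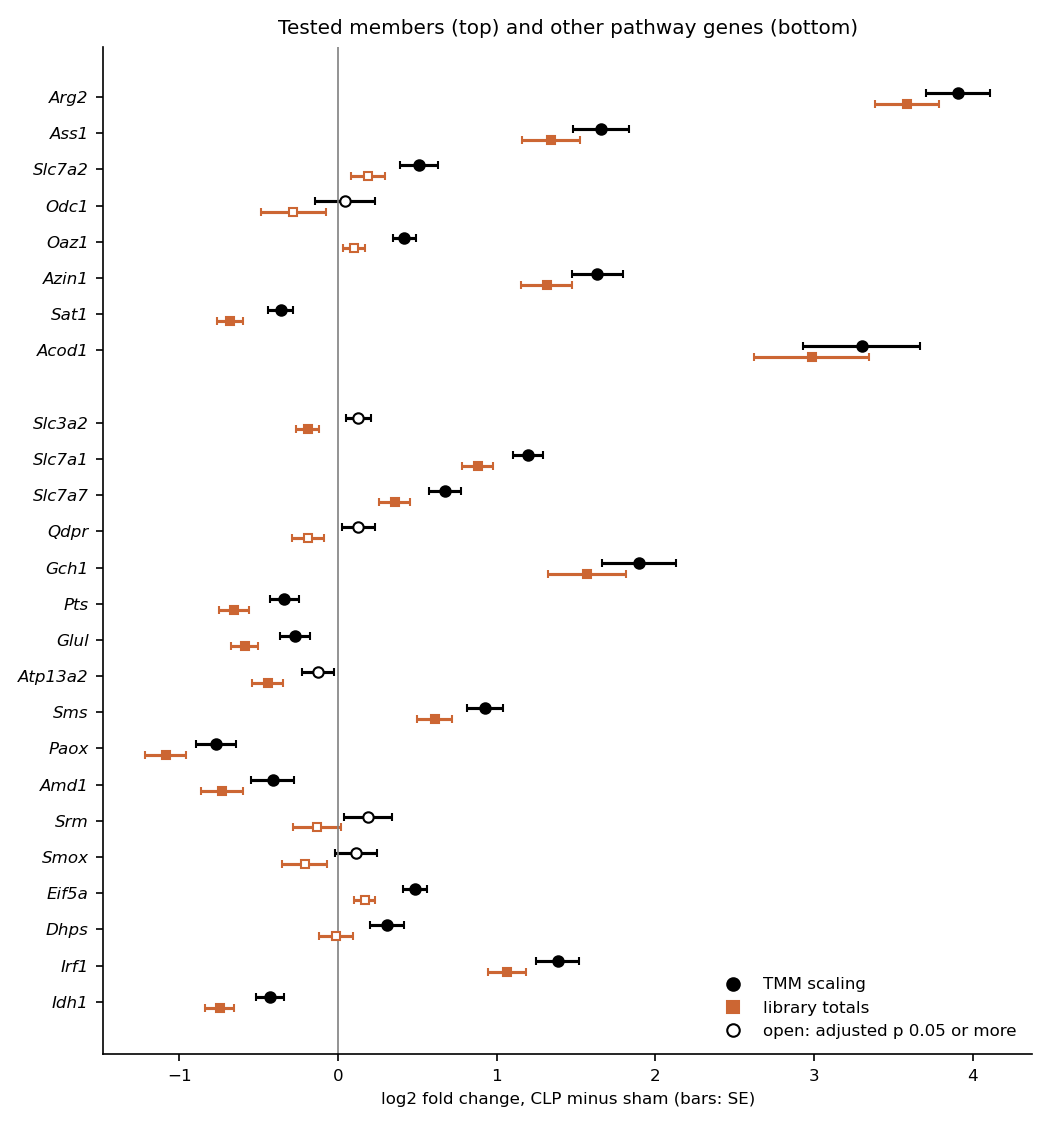
Log2 fold change, CLP minus sham (horizontal axis, bars 1 SE), of the 8 tested members above and 17 other pathway genes named by rule below, with TMM scaling (black) and library totals (orange), filled where the adjusted p was under 0.05. Arg2 and Acod1 lie farthest to the right, and among the members Slc7a2 and Oaz1 are filled with TMM scaling only.

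RefSeq promoter windows of build GRCm38.p6 were at hand for 5 members, and the 250 bases before the start site are printed for the 3 that rose and the 1 that fell. Capitals mark matches on either strand to 8 motifs. Interferon regulatory factors were searched for as AANNGAAA and the E-box, the site of many helix-loop-helix factors, as CACGTG. The TATA box, which places the start of transcription, was searched for as TATAAA. The GAS element that binds STAT factors was taken as TTCNNNGAA, and the site of C/EBP factors as TTGCNNAA. For AP-1 the letters were TGANTCA, for the cyclic AMP response element (CRE) they were TGACGTCA, and NF-kB was searched for by its usual motif. No match overlapped another.
Acod1: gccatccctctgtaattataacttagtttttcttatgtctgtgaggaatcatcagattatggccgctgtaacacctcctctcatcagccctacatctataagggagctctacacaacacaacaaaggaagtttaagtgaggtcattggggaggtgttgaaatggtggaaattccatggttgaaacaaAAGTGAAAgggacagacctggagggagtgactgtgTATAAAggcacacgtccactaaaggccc
Ass1: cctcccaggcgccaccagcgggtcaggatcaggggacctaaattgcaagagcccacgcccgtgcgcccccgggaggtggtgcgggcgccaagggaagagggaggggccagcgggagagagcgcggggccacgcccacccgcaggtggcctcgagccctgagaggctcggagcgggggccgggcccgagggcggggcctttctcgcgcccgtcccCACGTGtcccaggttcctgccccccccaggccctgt
Oaz1: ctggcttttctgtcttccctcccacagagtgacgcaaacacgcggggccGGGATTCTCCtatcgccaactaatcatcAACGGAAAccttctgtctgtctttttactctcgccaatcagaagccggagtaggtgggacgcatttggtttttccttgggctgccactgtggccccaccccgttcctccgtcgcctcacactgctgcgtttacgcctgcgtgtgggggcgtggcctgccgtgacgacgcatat
Sat1: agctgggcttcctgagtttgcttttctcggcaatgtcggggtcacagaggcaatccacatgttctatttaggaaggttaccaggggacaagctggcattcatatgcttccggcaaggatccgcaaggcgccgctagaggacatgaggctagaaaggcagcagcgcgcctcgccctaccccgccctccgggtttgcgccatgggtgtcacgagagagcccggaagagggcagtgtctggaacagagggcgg
The windows are chr14:103046762-103047011 on the plus strand for Acod1, chr2:31470020-31470269 on the plus strand for Ass1, chr10:80826406-80826655 on the plus strand for Oaz1 and chrX:155216450-155216699 on the minus strand for Sat1. Acod1 held a TATA box 28 bases and an interferon regulatory factor match 63 bases before the start, and 12.4% and 21.3% of all 32851 windows of this length held such matches. Ass1 held an E-box (6.02% of windows). Oaz1 held an NF-kB match (9.55%) and an interferon regulatory factor match. Sat1 and the window of Odc1, which is not printed, held none of these letters. GAS, C/EBP, AP-1 and CRE letters were in none of the 5 windows and in 7.02%, 9.56%, 6.75% and 1.55% of all windows. The G and C share was 44.4% for Acod1, against 58.0% to 80.0% for the other 4 members and a median of 52.4% over all windows.

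Genes whose levels over the 8 libraries ran closest to a member were found by the root mean square distance of log2 CPM, each gene centred on its own mean, among 9525 genes averaging 5 CPM or more. The nearest to Acod1 were Fas, the death receptor (distance 0.247), Slc2a6, a sugar transporter (0.303), and Cd274, which encodes PD-L1 (0.323), against a median distance of 1.62. The nearest to Slc7a2 were Hk3 (0.0656), Prdx5 (0.0766) and Nucb2 (0.0844), and the nearest to Sat1 were D5Ertd579e (0.028), Hook3 (0.0574) and Cabin1 (0.061), with median distances of 0.383 and 0.294. All 8 libraries enter the distance, so the difference between CLP and sham is part of it.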

How the data were processed

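The authors deposited raw read counts per Ensembl gene, 1 column per library. Per the submitters' processing notes, FastQC, STAR 2.7.10b, featureCounts, DESeq2 and build mm39 were used, without stated roles. The annotation release is not given in the sources used here, nor is the strand setting. Whether the counting told overlapping genes on opposite strands apart is therefore not known. Per the labels' protocols, libraries were stranded TruSeq. Of 55414 identifiers, 52081 received symbols from GENCODE M21, which also gave exon lengths. All 79 listed pathway genes were found.

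The test of counts was that of edgeR 4.0.16 under R 4.3.3 (filterByExpr, TMM, robust quasi-likelihood F-test, Benjamini-Hochberg over 14004 genes, threshold 0.05). Each SE was obtained from the size of the log2 fold change and the square root of its F statistic, as their quotient. With these depths, 1 CPM rests on 15.1 to 27.6 reads. The step was tested on simulated data. Ratios used counts plus 0.5 and exact permutation over 70 assignments. All members were named. From each pathway list the most abundant gene and the 2 largest changes at 1 CPM or more were named, besides Slc7a1, Gch1, Amd1, Srm, Smox and Irf1. Some results of that rule and 1 of the 6 ratios are not reported here. Succinate dehydrogenase genes, Asl, Azin2, Slc18b1, Otc and the genes under other observations were named with their values known. Members and lists were chosen with earlier results of these data known. Alternatives were DESeq2 1.42.0, limma-voom (limma 3.58.1), other scalings and filters, 1 surrogate variable (sva 3.50.0), a replicate block and each library left out. Figures used Python 3.11.15 and matplotlib 3.10.9.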

Additional observations from a re-analysis of the deposited data

How the results depend on the processing

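With library totals 1286 genes were higher and 6435 lower, against 2767 and 3297 with TMM (16.7% of calls higher against 45.6%). Slc7a2 (0.19) and Oaz1 (0.10) lost their calls there and Odc1 turned to -0.28, as did the small values of Slc3a2 (-0.19), Qdpr (-0.19), Srm (-0.13), Smox (-0.21) and Dhps (-0.011), and only Slc3a2 among these was called lower. Leaving out 1 library moved Odc1 between -0.040 and 0.32, with a call only without Sham replicate 4. The other 7 tested members kept direction and call in edgeR without any single library, and with DESeq2, limma-voom, DESeq2 size factors, no filter, 1 surrogate variable and the replicate block. The filter at 10 CPM in 4 libraries removed Acod1 and left the other 6 called. Acod1 rests on 10 to 23 reads per sham library, which limits the precision of its fold change.

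Without 1 library the ratio differences were 1.05 to 1.32 for Azin1 to Oaz1, 1.29 to 1.62 for Azin1 to Odc1, -0.81 to -0.52 for Slc7a2 to Slc7a1 and -0.48 to -0.13 for Odc1 to Oaz1, which had no call. For the first 3, 7 libraries cannot bring the exact permutation p, adjusted over the 6 ratios, under the threshold, and the adjusted values were 0.0686 to 0.0857. In the replicate block, with paired differences of 1.19, 1.51 and -0.70 for those 3 ratios, the exact sign-flip p was 0.125, the smallest 4 pairs allow (adjusted p = 0.188). Libraries that share a replicate number correlated at 0.074, -0.038, 0.26 and -0.19 in their deviations from the group means. Those with different numbers correlated at -0.21 to 0.19. So few values cannot show whether the numbers mark pairs, and the labels name no pairing. The block gave 6089 changed genes in edgeR against 6064.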

Other observations

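The genes of this paragraph and the next were picked after their values were seen. Among nitric oxide synthases, the transcript found in quantity was not Nos2 but Nos1, the form first described in neurons. It was at 93.3, 95.3, 73.1 and 99.5 CPM in sham and at 74.6, 69.3, 66.0 and 88.2 CPM in CLP, with overlap between the groups and no call (log2 fold change -0.28, adjusted p = 0.0707 in edgeR), but with library totals it was lower (-0.60, adjusted p = 0.000987). Nos3 stayed at 0.199 ± 0.062 and 0.301 ± 0.151 CPM (SD, n = 4 each). Nosip, which encodes a protein that binds nitric oxide synthases, fell from 27.8 ± 2.6 to 20.2 ± 1.8 CPM (-0.46, adjusted p = 0.00417, and -0.77 with library totals). Whether the Nos1 reads come from the macrophages or from another cell in the sort was not tested.

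The subunits of methionine adenosyltransferase, which makes the S-adenosylmethionine that polyamine synthesis draws on, went opposite ways. The catalytic Mat2a rose from 136 ± 6 to 206 ± 20 CPM (0.60 on the log2 scale, adjusted p = 0.000158) and the regulatory Mat2b fell from 51.4 ± 2.7 to 34.1 ± 3.9 CPM (-0.59, adjusted p = 0.000474), and with library totals the values were 0.28 and -0.91, both called. Gatm, which uses arginine to make the precursor of creatine, rose from 104 ± 9 to 152 ± 14 CPM (0.54, adjusted p = 0.000538, and 0.22 with library totals).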
